A study of Mus musculus with 10 samples.

Results

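The EGF family of growth factors and their ErbB receptors were examined as a set of 10 genes, among 55536 genes counted in bladder RNA of C57BL/6 mice. The members were chosen by family membership, as 7 ligands (Egf, Tgfa, Areg, Ereg, Hbegf, Btc and Nrg1) and 3 receptors (Egfr, Erbb2 and Erbb3). The libraries came from 4 wild-type (WT), 3 OMD-/- and 3 PRELP-/- mouse bladders, each labelled as bladder tissue, with strain C57BL/6 given for all 3 groups. The study's own account instead speaks of isolated bladder epithelia and of other group sizes, and the labels were followed here. OMD (osteomodulin) and PRELP are secreted small leucine-rich proteoglycans of the extracellular matrix, and each knockout was constitutive, with exons removed in all cells and a β-galactosidase cassette put in their place. Age, sex and pooling of animals were not given in the labels. The study asked, among other questions, whether loss of either proteoglycan alters EGF pathway genes in the bladder. Values are given as CPM (read counts relative to library size, scaled by TMM over all 10 libraries) within a gene and as RPKM (the same CPM per kilobase of exon) between genes.

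The ligands are made as membrane-bound precursors that proteases cut free at the cell surface, and they bind the receptors Egfr, Erbb3 and Erbb4, while Erbb2 has no ligand of its own and works as the favoured partner of the others. Paired receptors phosphorylate each other and pass the signal through Ras and MAP kinases and through PI3 kinase and Akt to early target genes, some of which encode inhibitors of the same pathway. In the urothelium, the lining of the bladder, this system is known for its part in growth and wound repair.

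The targeted genes were read first. Omd was at 0 counts in all 3 OMD-/- libraries, but it was also at 0, 1, 8 and 12 counts in WT 1 to WT 4, so it gives a weak check of those labels. Prelp was at 4.2, 1.84 and 2.11 CPM in the PRELP-/- libraries, against 214 to 317 CPM in WT and 771 to 825 CPM in OMD-/-. The WT libraries fell into pairs: 4 Y chromosome genes summed to 188 and 163 CPM in WT 1 and WT 2 and to at most 0.0442 CPM in WT 3 and WT 4, which instead held 1019 and 1225 CPM of Xist, and the sum was 0.73 to 18.1 CPM in OMD-/- and 18.5 to 120 CPM in PRELP-/-. PRELP-/- replicate 1 stood apart. Its 6 umbrella cell markers summed to 19949 CPM, against 7778 to 9494 CPM in WT and 9900 to 13475 CPM in the other 5 knockout libraries, and its fibroblast markers summed to 9853 CPM, against 17447 to 21268 CPM in those 5 and 8122 to 9299 CPM in WT. Urothelial markers were abundant in all libraries. The 7 smooth muscle markers summed to 230 to 1285 CPM. The 4 kidney markers, from an organ with high Egf, summed to at most 0.857 CPM, and the 7 male accessory gland markers to at most 0.0443 CPM.

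Sequence upstream of the transcription start is shown for the ligand that differed from WT (Egf), for the most abundant ligand (Tgfa) and for the ligand whose WT libraries spread the most among those with a window (Areg). These 250 bases end just before the RefSeq start on build GRCm38.p6 and are written along the gene's strand, with matches to 4 motifs in capitals. The motifs were the TATA box (TATAAA), the AP-1 site (TGACTCA), the cAMP response element (TGACGTCA) and the SP1 site (GGGCGG), searched on both strands.

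Egf, chr3:129755323-129755572, minus strand: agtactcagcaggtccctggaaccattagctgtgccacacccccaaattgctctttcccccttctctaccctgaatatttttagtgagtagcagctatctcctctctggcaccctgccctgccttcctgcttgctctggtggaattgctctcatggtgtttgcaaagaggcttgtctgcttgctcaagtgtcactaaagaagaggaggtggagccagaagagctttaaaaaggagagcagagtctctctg

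Tgfa, chr6:86194972-86195221, plus strand: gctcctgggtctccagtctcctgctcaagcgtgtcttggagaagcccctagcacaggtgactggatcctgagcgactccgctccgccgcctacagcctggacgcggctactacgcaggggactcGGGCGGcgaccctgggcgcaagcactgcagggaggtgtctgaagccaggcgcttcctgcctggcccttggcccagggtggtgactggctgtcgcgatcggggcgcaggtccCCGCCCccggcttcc

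Areg, chr5:91139349-91139598, plus strand: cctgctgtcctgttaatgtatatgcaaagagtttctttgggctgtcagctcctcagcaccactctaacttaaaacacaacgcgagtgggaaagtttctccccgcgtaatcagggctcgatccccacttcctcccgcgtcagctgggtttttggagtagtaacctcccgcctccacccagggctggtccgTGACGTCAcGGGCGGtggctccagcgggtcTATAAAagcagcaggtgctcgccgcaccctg

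None of the 4 motifs matched in the printed Egf window, which had 50.4% G and C and 0 CpG dinucleotides. A second Egf window, before a RefSeq start inside the gene (chr3:129725087-129725336, minus strand), had 52% G and C, 15 CpG dinucleotides and no match either. The Tgfa window had 69.2% G and C, 19 CpG dinucleotides and 2 SP1 matches. The Areg window had 57.2% G and C, 15 CpG dinucleotides and 1 match each to the cAMP response element, the SP1 site and the TATA box. Over all 32851 windows of that length, 12.4% held TATAAA, 4.46% TGACTCA, 1.55% TGACGTCA and 32.7% GGGCGG on either strand, and the median was 52.4% G and C with 6 CpG dinucleotides. Windows were present for 6 of the 10 members.

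In WT bladder RNA the 2 receptors Erbb2 and Erbb3 and the ligand Tgfa were far above the other members. Per length, Erbb2 was at 30.6 ± 3.53 RPKM (SD, n = 4), Erbb3 at 26.1 ± 2.84 RPKM and Tgfa at 22.5 ± 1.48 RPKM. The ranges of neighbours in this order overlapped, although each was above the next in 4 of 4 libraries. Egfr, the receptor of Egf, Tgfa and Areg, followed at 5.21 ± 0.18 RPKM and overlapped neither Tgfa above it nor Areg below it. Areg (amphiregulin) was at 1.64 ± 0.83 RPKM, Hbegf (a heparin-binding ligand) at 0.915 ± 0.126 RPKM, Btc (betacellulin) at 0.588 ± 0.205 RPKM and Nrg1 (a neuregulin, which binds Erbb3) at 0.521 ± 0.157 RPKM, and the ranges of each adjacent pair among these overlapped. Egf at 0.178 ± 0.0494 RPKM and Ereg (epiregulin) at 0.176 ± 0.117 RPKM were lowest and could not be ordered, Egf being higher in 2 of 4 libraries. So Tgfa made up 84.8% ± 4.51 of the summed ligand RPKM in WT, and Egf 0.669% ± 0.169.

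**Figure D1:**
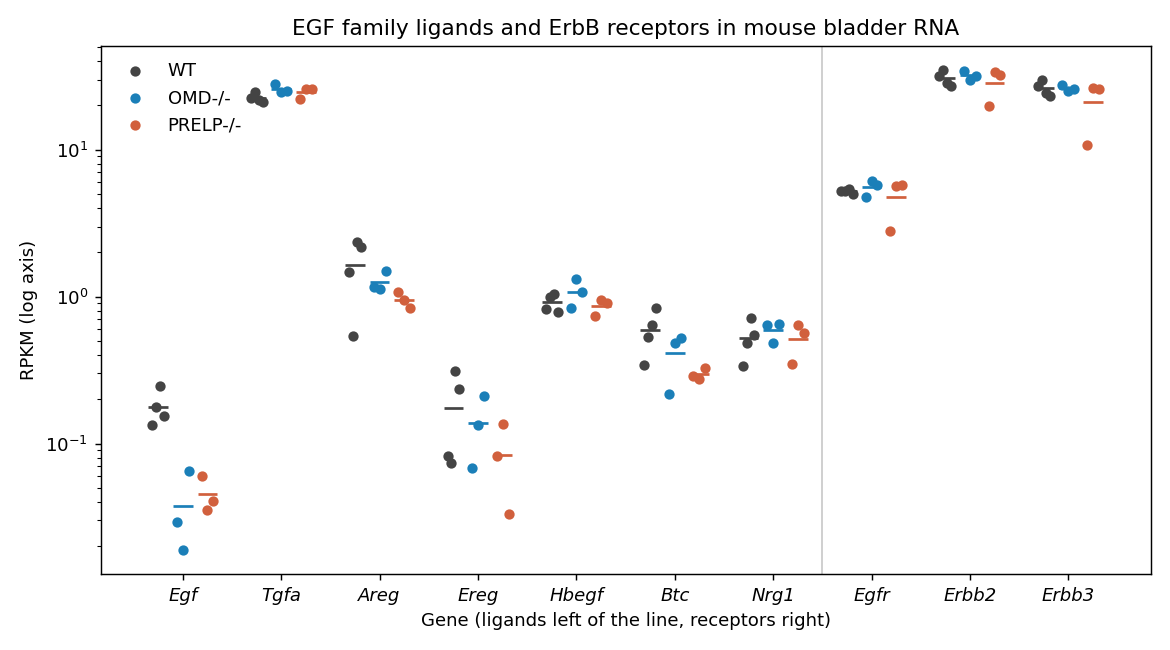
RPKM of the 10 members on a log axis, with 1 point per library and a line at the group mean. Erbb2, Erbb3 and Tgfa sit at 10.7 RPKM or above in every library, the other ligands lie at 2.37 RPKM or below, and the Egf points of both knockouts lie below all 4 WT points.

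Egf was the member that differed in both knockouts. Egf, the ligand that gave the family its name and binds Egfr, was at 1.51, 2.01, 2.79 and 1.73 CPM in WT 1 to WT 4, which are 76, 46, 63 and 39 reads. It was at 0.33, 0.212 and 0.73 CPM in OMD-/- (7, 5 and 16 reads) and at 0.681, 0.4 and 0.459 CPM in PRELP-/- (12, 10 and 10 reads). Every knockout library was below every WT library. In edgeR's quasi-likelihood fit, with p adjusted by Benjamini and Hochberg's method over all genes tested, the log2 fold change was -2.23 in OMD-/- (SE 0.44, adjusted p = 0.00388) and -1.99 in PRELP-/- (SE 0.35, adjusted p = 0.0127), so Egf was 4.69-fold lower in OMD-/- and 3.98-fold lower in PRELP-/-. Its fold between the knockouts was 0.25 on the log2 scale (SE 0.53, adjusted p = 0.831). Egf passed the filter on low counts in both comparisons through its WT libraries. The OMD-/- call held under every alternative run, with adjusted p from 1.6e-05 to 0.0213. The PRELP-/- call was lost without PRELP-/- replicate 2 (adjusted p = 0.0643) and without PRELP-/- replicate 3 (adjusted p = 0.0559). It was also lost with the WT libraries of either pair alone (adjusted p = 0.131 with WT 1 and WT 2, 0.0529 with WT 3 and WT 4) and with the replicate number as a block. The PRELP-/- fold change stayed between -1.80 and -2.26 on the log2 scale over all alternatives.

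Egf lies on chromosome 3 (129677565 to 129755316, minus strand, GRCm38) and shares exon bases with 2 antisense genes, both at 0 CPM. Its share of the summed ligand RPKM was 0.525% to 0.911% in WT, 0.0667% to 0.224% in OMD-/- and 0.123% to 0.243% in PRELP-/-, with no overlap (exact permutation test, two-sided, p = 0.0571 for each knockout, the smallest that 4 against 3 libraries allow). The 3 other genes whose centred log2 CPM lay nearest to that of Egf over the 10 libraries, of 14475 genes with a mean of 1 CPM or more, were Gm35066, Gm45838 and 2900076A07Rik, with root mean square differences of 0.32, 0.33 and 0.34. None of them is annotated as protein-coding. Gm35066, a macro lncRNA, was at 1.95 ± 0.61 CPM in WT, 0.392 ± 0.215 CPM in OMD-/- and 0.658 ± 0.218 CPM in PRELP-/-.

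Among noncoding RNAs that stay in the nucleus, 5 were lower in both knockouts, as Egf was. Neat1, the RNA scaffold of paraspeckles, was at 342 to 450 CPM in WT, 13.2 to 26.2 CPM in OMD-/- and 15.7 to 17.7 CPM in PRELP-/-. Malat1, an RNA of nuclear speckles, was at 756 to 1116 CPM in WT and at 177 to 318 CPM over both knockouts. Firre, Meg3 and Kcnq1ot1 were lower as well, and all 5 passed the test in both comparisons, with log2 fold changes from -4.80 to -1.36 in OMD-/- and from -5.03 to -1.97 in PRELP-/-. Xist, which coats the inactive X chromosome, split the WT libraries as the Y chromosome genes did. It was at 2.13 and 5.63 CPM in WT 1 and WT 2 and at 1019 and 1225 CPM in WT 3 and WT 4. In OMD-/- it was at 38.2 to 88.7 CPM and in PRELP-/- at 0.397 to 55.4 CPM. Besides WT 3 and WT 4, only OMD-/- replicates 2 and 3 had a Y chromosome sum of 0.805 CPM or below, and their Xist was at 88.7 and 76.6 CPM. The 5 genes were chosen after the values were seen and are no test of nuclear RNAs as a class. Their part in the Egf difference was not tested.

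**Figure D2:**
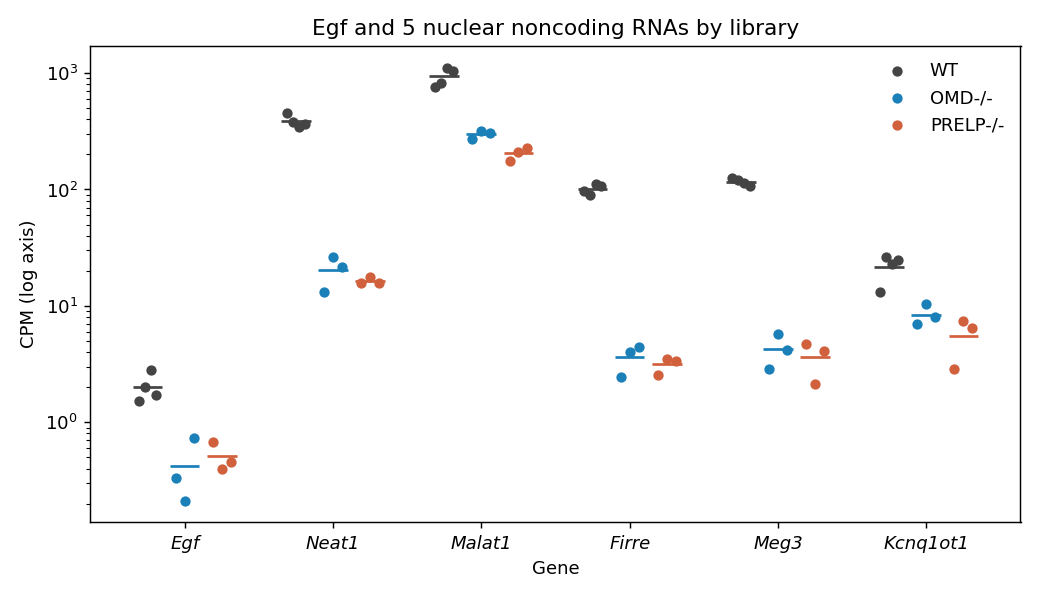
CPM of Egf and of 5 nuclear noncoding RNAs on a log axis, with 1 point per library and a line at the group mean. For each of the 6 genes, all 6 knockout libraries lie below all 4 WT libraries, from 0.73 CPM or below against 1.51 CPM or above for Egf to 26.2 CPM or below against 342 CPM or above for Neat1.

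Against this, most of the family did not pass the test in either knockout. In OMD-/- against WT, 10 of 10 members were tested and 1 was called (Egf, lower), where 29.4% of all 16647 genes tested were called, 14.3% higher and 15.1% lower. The members' median log2 fold change was 0.04, beside -0.00 over all genes. In PRELP-/- against WT, 1 of 10 was called (Egf, lower), where 7.29% of 16581 genes were called, 1.40% higher and 5.89% lower, and the members' median was -0.24 beside 0.02 over all genes. Without PRELP-/- replicate 1, where 22.2% of genes were called, Egf was still the 1 member called. In PRELP-/- against OMD-/-, 0 of 10 members were called by edgeR and 0 had an unadjusted p under 0.05, and limma-voom with sample quality weights and DESeq2 called 0 as well. There, 0.00633% of 15805 genes (1 gene, Prelp) were called. Deviations of same-numbered knockout libraries correlated positively, which does not establish pairing. With the replicate number as a block 43 genes (0.272%) were called, 3 higher and 40 lower. Again 0 of the 10 members were called, with Egf at 0.33 on the log2 scale (adjusted p = 0.76, edgeR). Ranges of the knockout and WT libraries did not overlap for 2 members in OMD-/- (Egf and Tgfa) and for 2 in PRELP-/- (Egf and Btc), against 38.9% and 30.0% of all genes tested. Each knockout was set against the same WT libraries, so the 2 comparisons are not independent.

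**Figure D3:**
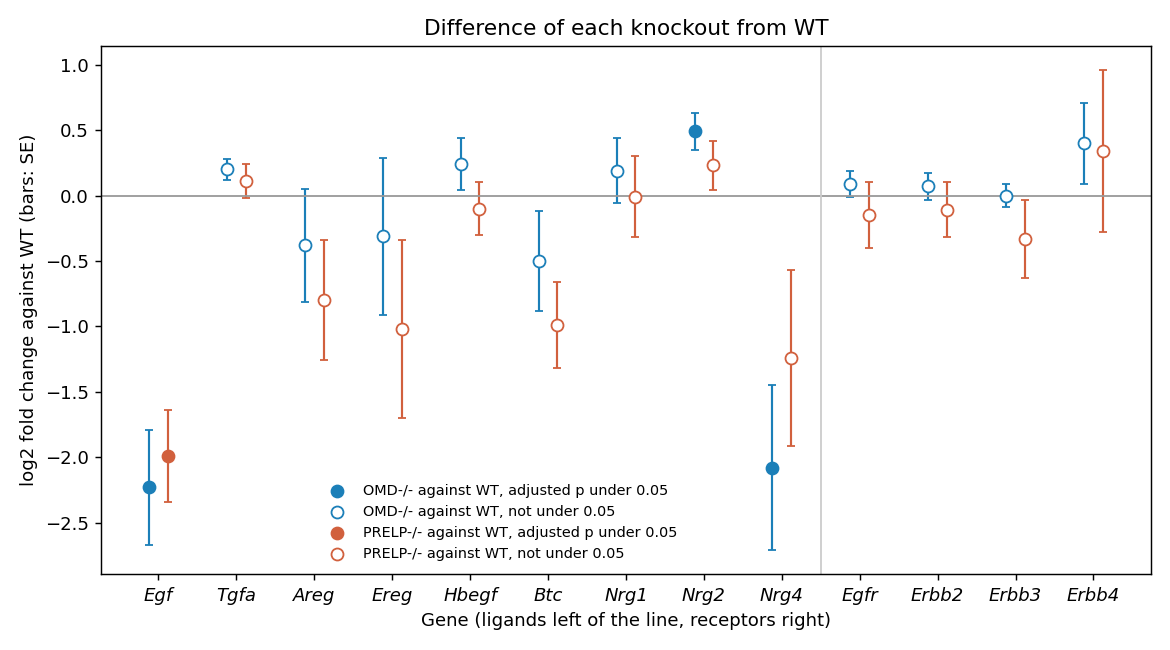
Log2 fold change of each knockout against WT with its SE, for the members and for Nrg2, Nrg4 and Erbb4, with filled points where the adjusted p was under 0.05. Egf is filled at -2.23 and -1.99, Nrg2 and Nrg4 are filled in OMD-/- alone, and the receptors lie between -0.33 and 0.40.

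Tgfa, the most abundant ligand and a strong activator of Egfr, was at 145, 160, 142 and 137 CPM in WT. It was at 183, 160 and 162 CPM in OMD-/- and at 144, 168 and 167 CPM in PRELP-/-. The OMD-/- libraries were above WT, but WT 2 and OMD-/- replicate 2 were nearly equal. The log2 fold changes were 0.20 (SE 0.08, adjusted p = 0.0842) and 0.11 (SE 0.13, adjusted p = 0.624) by edgeR, neither past the threshold. Tgfa in OMD-/- passed with weighted limma-voom (adjusted p = 0.0437), with the Y chromosome sum as a covariate (adjusted p = 0.0205) and against WT 3 and WT 4 alone (adjusted p = 0.0317), and in PRELP-/- with weighted limma-voom (adjusted p = 0.0288).

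Areg and Ereg, neighbours on chromosome 5, split the WT libraries. Areg, which is known to rise with wounding in epithelia, was at 1.79, 0.655, 2.88 and 2.65 CPM in WT, at 1.41, 1.36 and 1.83 CPM in OMD-/- and at 1.31, 1.16 and 1.01 CPM in PRELP-/-. The PRELP-/- libraries lay below WT 1, WT 3 and WT 4 and above WT 2, while OMD-/- replicate 3 was also above WT 1, so both knockouts overlapped WT. The log2 fold changes were -0.38 (SE 0.43) and -0.80 (SE 0.46). Against WT 1 and WT 2 alone the OMD-/- value was 0.26, and against WT 3 and WT 4 alone it was -0.85 (adjusted p = 0.0316). Ereg was at 0.339, 0.305, 1.28 and 0.973 CPM in WT, at 0.283, 0.551 and 0.867 CPM in OMD-/- and at 0.341, 0.561 and 0.138 CPM in PRELP-/-, which is 3 to 29 reads per library. Its OMD-/- value likewise turned from -0.31 (SE 0.60) to 0.80 against WT 1 and WT 2, so neither gene had a direction in OMD-/- that held for both WT pairs.

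Btc, a ligand of Egfr and Erbb4, was at 1.55, 2.4, 2.92 and 3.76 CPM in WT, at 0.989, 2.2 and 2.37 CPM in OMD-/- and at 1.31, 1.24 and 1.47 CPM in PRELP-/-. The PRELP-/- libraries lay close together below all WT libraries, at -0.99 on the log2 scale (SE 0.33, adjusted p = 0.102 by edgeR), and passed with weighted limma-voom (adjusted p = 0.00731). Hbegf was at 4.01, 4.84, 5.05 and 3.8 CPM in WT, 4.05, 6.31 and 5.2 CPM in OMD-/- and 3.58, 4.57 and 4.36 CPM in PRELP-/-. Nrg1 was at 3.47, 5.02, 7.39 and 5.71 CPM in WT, 6.64, 5 and 6.76 CPM in OMD-/- and 3.58, 6.65 and 5.88 CPM in PRELP-/-. For both of these the groups overlapped, with log2 fold changes from -0.10 to 0.24 and SE from 0.20 to 0.31.

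The spread among WT libraries was itself large. For 7 of the 10 members the values in WT 1 and WT 2 did not overlap those in WT 3 and WT 4, near the 60.1% of all tested genes for which that held. Tgfa, Erbb2 and Erbb3 were higher in WT 1 and WT 2, and Areg, Ereg, Btc and Nrg1 were higher in WT 3 and WT 4. The smooth muscle marker sum was 309 and 326 CPM in WT 1 and WT 2 and 1127 and 1285 CPM in WT 3 and WT 4, and its part in the split was not tested.

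The summed RPKM of the 7 ligands was 25.6, 27.4, 27.1 and 25.9 in WT, 31.1, 28.2 and 28.9 in OMD-/- and 24.8, 28.9 and 28.4 in PRELP-/-. Mean sums were 26.5 ± 0.881 in WT (n = 4), 29.4 ± 1.54 in OMD-/- (n = 3) and 27.4 ± 2.23 in PRELP-/- (n = 3), and the OMD-/- libraries all lay above WT under TMM scaling (exact permutation test, p = 0.0571, the smallest possible), while scaling by library totals turned the difference to -0.308 RPKM (exact permutation p = 0.629). TMM factors were 1.074 to 1.108 in WT and 0.8159 to 0.9949 in the knockouts. Tgfa carried the sum, at 86.1% to 90.5% of it in the knockouts, and without Tgfa the OMD-/- difference from WT was -0.508 RPKM (exact permutation p = 0.571). These sums leave out Nrg2, which was at 3.47 ± 0.526 RPKM in WT and 4.87 ± 0.411 RPKM in OMD-/-. A sum with Nrg2 was not tested.

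The receptors were near their WT level in 5 of 6 knockout libraries and low in PRELP-/- replicate 1. Egfr was at 58.9, 59, 61.7 and 56.7 CPM in WT and at 54.4, 69.3 and 64.8 CPM in OMD-/-, but at 31.5, 64.4 and 65.2 CPM in PRELP-/-. Erbb2 was at 166, 182, 148 and 142 CPM in WT, at 179, 156 and 166 CPM in OMD-/- and at 103, 177 and 169 CPM in PRELP-/-. Erbb3, the kinase-poor receptor of neuregulins, was at 163, 178, 147 and 140 CPM in WT, at 166, 152 and 156 CPM in OMD-/- and at 64.5, 159 and 156 CPM in PRELP-/-. For each of the 3 receptors, PRELP-/- replicate 1 was below all other libraries. OMD-/- differed from WT by 0.09, 0.07 and 0.00 on the log2 scale for Egfr, Erbb2 and Erbb3 (SE 0.10, 0.10 and 0.09), and PRELP-/- by -0.15, -0.11 and -0.33 (SE 0.25, 0.21 and 0.30). Without PRELP-/- replicate 1 the latter were 0.14, 0.13 and 0.01, none past the threshold. The summed receptor RPKM was 62 ± 6.38 in WT, 63.9 ± 2.7 in OMD-/- (exact permutation p = 0.686) and 54.5 ± 18.4 in PRELP-/- (exact permutation p = 0.629), with 33.2 in PRELP-/- replicate 1 and 66.1 and 64.1 in the others.

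The low receptor values of PRELP-/- replicate 1 came with marker sums that stood apart in both directions. Its umbrella cell sum was the 19949 CPM given above and its basal urothelium sum 4792 CPM, against 2340 to 3016 CPM in WT, with none of the 10 markers at 0. Its adipose sum was 1918 CPM against 520 to 887 CPM in the other libraries, and its red blood cell sum 473 CPM against 35.4 to 69.6 CPM. Its leukocyte sum of 117 CPM was below the 185 to 431 CPM of the other libraries, and its endothelium sum of 205 CPM was below the 401 and 379 CPM of the other PRELP-/- libraries. This library also had the lowest TMM factor (0.8159) and the fewest genes detected (21221, against 21863 to 25776). Other genes of the pathway lists described below stood apart in it too, in both directions. Erbin was at 82.1 CPM against 197 to 273 CPM elsewhere, and Sos1 at 18.6 against 37 to 54.5 CPM. Hras was at 223 CPM against 73.7 to 103 CPM, and Cd9 at 780 against 378 to 451 CPM. Socs4, at 46 CPM, lay within the 41 to 54.2 CPM of the rest. These genes were named after their values were seen. The part of these differences in the receptor values was not tested, and in bulk RNA fewer cells of a type and less RNA per cell cannot be told apart.

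**Figure D4:**
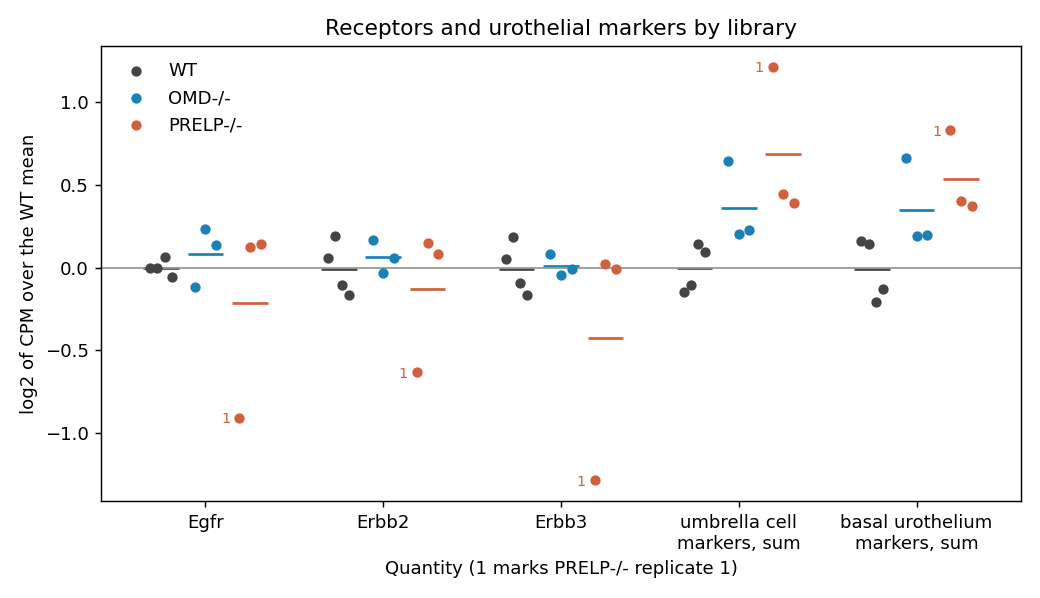
Log2 of CPM over the WT mean for 3 receptors and 2 summed marker lists, with 1 point per library, a line at the mean of the plotted points, and 1 beside PRELP-/- replicate 1. That library lies lowest for Egfr, Erbb2 and Erbb3 (31.5, 103 and 64.5 CPM) and highest for both marker sums (19949 and 4792 CPM).

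Erbb2 and Erbb3, which pair with each other, were read in nearly equal numbers in WT. The ratio of their read counts was 1.02, 1.02, 1 and 1.01 in WT 1 to WT 4, 1.07, 1.03 and 1.07 in OMD-/- and 1.59, 1.11 and 1.08 in PRELP-/-. All knockout libraries lay above all WT libraries (exact permutation test, p = 0.0571 for each knockout, the smallest that 4 against 3 libraries allow). Counting error alone gave a 95% interval (exact binomial) of 1.48 to 1.71 for PRELP-/- replicate 1, above those of all WT libraries, which lay between 0.955 and 1.07. The intervals of the other 5 knockout libraries each overlapped that of at least 1 WT library. This ratio was chosen after the values were seen, and 9 shared exon bases of Erbb2 with Mien1 enter it.

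Of the 5 further family genes, Nrg2, Nrg4 and Erbb4 were abundant enough to test. Nrg2, a neuregulin, was at 9.74, 13.2, 9.69 and 11 CPM in WT, at 15, 16.7 and 14.2 CPM in OMD-/- and at 10.4, 14.8 and 13.5 CPM in PRELP-/-. It rose in OMD-/- by 0.49 on the log2 scale (SE 0.14, adjusted p = 0.0228 by edgeR). That call was lost without OMD-/- replicate 2 (adjusted p = 0.102) or WT 3 (adjusted p = 0.0623), and against WT 1 and WT 2 alone (adjusted p = 0.0723). Nrg4 fell in OMD-/- by 2.08 (SE 0.63, adjusted p = 0.0299), from 13, 16, 27 and 24 reads in WT to 4, 3 and 5 reads, and the call was lost without any 1 of the OMD-/- replicates (adjusted p from 0.0753 to 0.113). Nrg4 passed the filter on low counts through its WT libraries, fell below it without WT 2, WT 3 or WT 4, and was not tested between the knockouts. Nrg4 shares 368 exon bases with Fbxo22 on the other strand, which was at 38.73 CPM, and since the strand setting of the counting was not given, reads of the 2 genes may not be separated. Erbb4, the remaining receptor, was at 1.32, 1.18, 1.64 and 2.17 CPM in WT, 2.03, 1.53 and 2.65 CPM in OMD-/- and 0.227, 3 and 2.66 CPM in PRELP-/-, again low in PRELP-/- replicate 1. Epgn was at 0 to 14 reads and Nrg3 at 0 in all libraries, where a count of 0 allows up to 0.0598 to 0.17 CPM by library, for counting error only.

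Genes around the receptors were taken from lists of 88 genes in 6 roles, the 5 further family genes included. In OMD-/-, 20 were called higher and 8 lower of 83 tested (33.7%, beside the 29.4% of all genes), and in PRELP-/- 0 higher and 2 lower of 83 (2.41%, beside 7.29%). In the direct comparison of the knockouts 0 of 82 were called by edgeR and 0 by DESeq2, while limma-voom with sample quality weights called 14 and 6.40% of all genes. With the replicate block 0 of 82 were called there. Without PRELP-/- replicate 1, 10 of 83 were called in PRELP-/- (12%, beside 22.2%).

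Ligand release and the receptors' neighbours came first. Of 8 sheddases and their partners, 1 was called higher and 1 lower in OMD-/- (25%, near the 29.4% of all genes). Timp3, an inhibitor of the ligand-cutting protease Adam17, rose by 0.72 on the log2 scale (SE 0.13, adjusted p = 0.00233), from 199, 197, 139 and 144 CPM in WT to 276, 285 and 280 CPM. Rhbdf1, which helps Adam17 reach the cell surface, fell in both knockouts, by 0.56 (SE 0.09, adjusted p = 0.00162) in OMD-/- and by 0.65 (SE 0.14, adjusted p = 0.0294) in PRELP-/-. It was at 50.1, 54.2, 57.6 and 60.5 CPM in WT, 37.1, 36.9 and 39.4 CPM in OMD-/- and 31.2, 37.9 and 38.3 CPM in PRELP-/-, with no overlap, and the PRELP-/- call was lost without any 1 library other than PRELP-/- replicate 1 (adjusted p from 0.0559 to 0.101). Of 9 receptor partners tested, 2 were called higher and 1 lower in OMD-/- (33.3%, near the 29.4% of all genes). Cd44 (log2 fold change 0.51) and Sdc4 (0.30), cell surface partners of Hbegf and other ligands, were higher. Eps15 (-0.25), an adaptor of receptor uptake, was lower. The Eps15 call was lost in 10 of the alternatives. In PRELP-/- Cd44, Sdc4 and Eps15 were at 0.43, 0.39 and -0.60, without a call (adjusted p = 0.101, 0.121 and 0.151, edgeR). Without PRELP-/- replicate 1, all of these were called in PRELP-/- in the same directions, at 0.51, 0.33 and -0.32.

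Of 24 genes of the signal relay, 2 were called higher and 2 lower in OMD-/- (16.7%, below the 29.4% of all genes). The kinases Akt2 and Mapk3 rose by 0.42 and 0.37 on the log2 scale, and Araf, a Raf family kinase, fell by 0.32. In PRELP-/- these were at 0.49, 0.64 and -0.11, without a call (adjusted p = 0.0759, 0.0779 and 0.653, edgeR). Without PRELP-/- replicate 1, Akt2 and Mapk3 were called higher in PRELP-/- too, at 0.38 and 0.42. The OMD-/- call of Mapk3 was lost without WT 3 or OMD-/- replicate 1 or 3 (adjusted p from 0.0516 to 0.0567), and that of Araf without OMD-/- replicate 2 (0.0681) or 3 (0.08). Of 21 feedback inhibitors, 3 were called higher and 2 lower in OMD-/- (23.8%, beside the 29.4% of all genes). Spry4 and Spry1, Sprouty inhibitors of receptor tyrosine kinase signalling, rose by 1.34 (SE 0.32) and 0.70 (SE 0.15). Spry4 was at 6.3, 6.59, 2.52 and 2.74 CPM in WT and at 10.1, 13.2 and 11.5 CPM in OMD-/-, above all WT libraries, and the WT pairs differed from each other. Its call was lost without OMD-/- replicate 2 (adjusted p = 0.0511, edgeR) and with no filter on low counts (adjusted p = 0.0565, edgeR). Spred1, an inhibitor of Ras activation, rose by 0.37, a call lost without WT 2, WT 3 or any 1 OMD-/- library (adjusted p from 0.0526 to 0.113). Its relative Spred3 fell in both knockouts, by 0.88 (SE 0.20, adjusted p = 0.00862) and by 1.02 (SE 0.19, adjusted p = 0.0168), from 5.14, 5.98, 6.33 and 7.03 CPM in WT to 2.59, 3.69 and 3.65 CPM in OMD-/- and 3.24, 3.24 and 2.66 CPM in PRELP-/-. It shares 202 exon bases with Ggn on the other strand, at 1.699 CPM. The PRELP-/- call of Spred3 was lost without WT 3, WT 4 or PRELP-/- replicate 2 or 3 (adjusted p from 0.0528 to 0.0725).

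The transcriptional targets were the list with the most calls in OMD-/-, 11 higher and 1 lower of 18 tested (66.7%, beside the 29.4% of all genes). The list's log2 fold changes had a median of 0.43 there and of 0.05 in PRELP-/-, where 0 of 18 were called. Egr1, an early growth response transcription factor, was at 6.26, 6.98, 3.23 and 3.49 CPM in WT, at 9, 28.7 and 31 CPM in OMD-/- and at 6.02, 8.61 and 9.6 CPM in PRELP-/-. Jun, a subunit of the AP-1 factor, was at 36.9, 36.7, 22.8 and 22.3 CPM in WT, at 40.4, 87 and 82 CPM in OMD-/- and at 28.3, 42.8 and 43.7 CPM in PRELP-/-. Jun shares 232 exon bases with its antisense RNA Junos, at 14.7 CPM. In both genes OMD-/- replicate 1 lay just above WT and the other 2 well above it. The same 2 libraries were high in the sum of 6 leukocyte markers, at 196, 416 and 431 CPM in OMD-/- 1 to 3, against 213 to 280 CPM in WT and 117 to 192 CPM in PRELP-/-, with none of the 6 at 0. Other sums also set OMD-/- 1 apart from OMD-/- 2 and 3. The umbrella cell sum was 13475, 9900 and 10085 CPM and the basal urothelium sum 4274, 3083 and 3092 CPM. The smooth muscle sum was 808, 383 and 394 CPM and the Y chromosome sum 18.1, 0.805 and 0.73 CPM. The part of any of these in the targets was not tested. Egr1 rose by 2.19 (SE 0.46, adjusted p = 0.0104), Egr2 by 1.76 (SE 0.54, adjusted p = 0.0306), Egr3 by 1.36 (SE 0.41, adjusted p = 0.0285) and Jun by 1.23 (SE 0.30, adjusted p = 0.0187) in OMD-/-. Egr2 was at 0.239, 0.567, 0.398 and 0.752 CPM in WT and at 0.518, 2.12 and 2.15 CPM in OMD-/-. Egr3 was at 0.458, 0.742, 0.797 and 0.973 CPM in WT and at 0.942, 2.63 and 2.01 CPM in OMD-/-. In both, OMD-/- replicate 1 lay within WT. Egr2 passed the filter on low counts through its OMD-/- libraries, where it was high, and it is among the 11 called higher. The count moved with single libraries. It was 3 higher and 0 lower (16.7%) without OMD-/- replicate 2, where 18.2% of all genes were called, and again 3 and 0 (16.7%) without OMD-/- replicate 3, where 17.2% were. It was 5 higher and 0 lower (27.8%) without WT 3, where 23.1% of all genes were called, and without WT 4, where 25.5% were. Among the genes named, the call was lost without WT 4 for Egr1 (adjusted p = 0.0533), without WT 1, WT 3 or OMD-/- replicate 2 or 3 for Egr2 (0.0546 to 0.134), without OMD-/- replicate 2 or 3 for Egr3 (0.155 and 0.095), and without WT 3, WT 4 or OMD-/- replicate 2 or 3 for Jun (0.0524 to 0.0737). In PRELP-/- against OMD-/-, Egr1, Egr2, Egr3 and Jun differed by -1.51, -1.46, -1.66 and -0.87 on the log2 scale, none past the threshold. In OMD-/- against WT, 12 of the 18 targets were higher, and Junb was the gene called lower, at -0.30 (adjusted p = 0.04, edgeR). Fos (-0.28), Ier2 (-0.24) and Maff (-0.58) were lower there without a call. Without PRELP-/- replicate 1, Fos and Plaur were called lower in PRELP-/-, at -0.76 and -0.46. Junb, Fos, Ier2, Maff and Plaur were named after their values were seen.

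**Figure D5:**
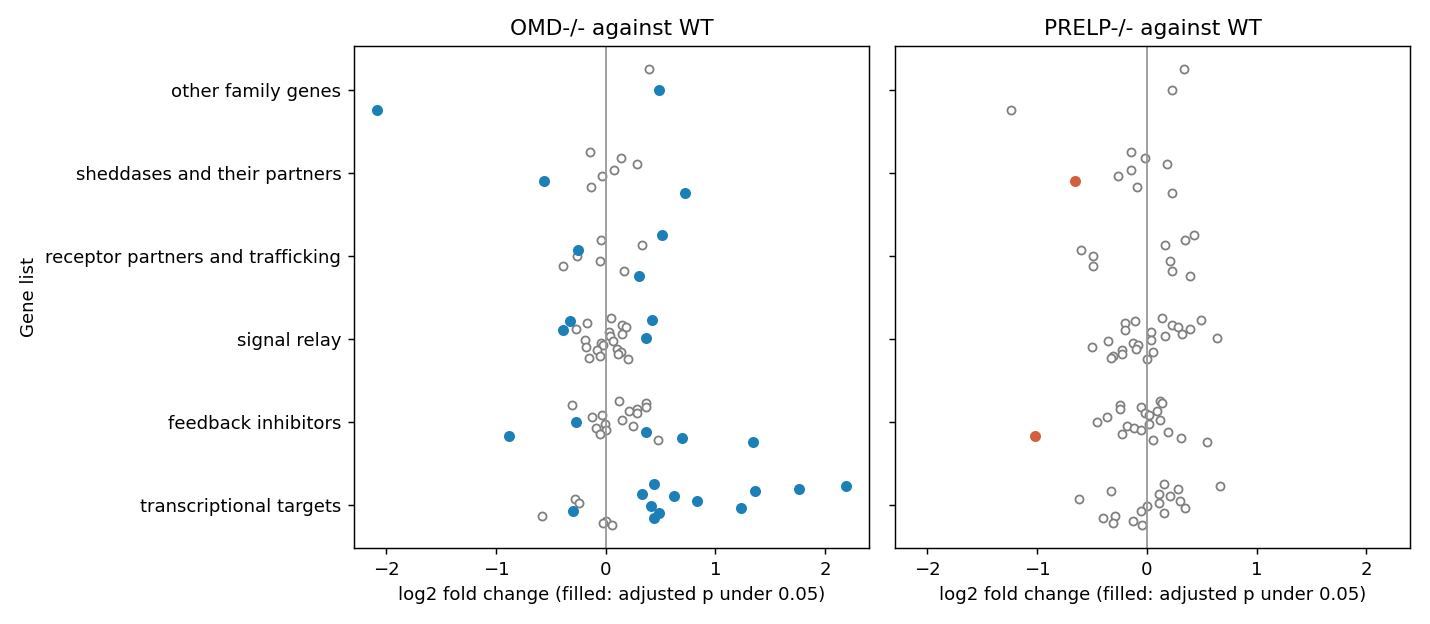
Log2 fold change against WT of the tested genes of 6 lists, in OMD-/- (left) and PRELP-/- (right), with filled points where the adjusted p was under 0.05. The transcriptional targets of OMD-/- reach 2.19 (Egr1) with 11 filled points above 0, and PRELP-/- has 2 filled points in all, both below 0 (Rhbdf1 at -0.65 and Spred3 at -1.02).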

How the data were processed

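Poly(A) RNA of 10 bladder samples was sequenced, with strand marked and molecular identifiers in the adaptors. The deposited files hold raw read counts for 55536 genes, made by the authors with HISAT2 (per the file headers) and featureCounts. The submitters' processing notes also list STAR 2.5.2b and builds GRCm38 and hg38 without roles. Strand setting and use of the identifiers were not given in the sources used here. The authors' DESeq2 comparison tables (fold changes, p-values) were not used. Total counts were 20391437 to 46269079 per library, where 3 counts are 0.0598 to 0.17 CPM.

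Symbols, lengths and coordinates came from GENCODE vM21 (GRCm38), which matched all 55536 identifiers, and promoter windows from RefSeq (GRCm38.p6). RPKM was TMM-scaled CPM per kilobase of exon union. A separate model was made for each pair of groups with edgeR 4.0.16 in R 4.3.3 (TMM, filterByExpr, robust quasi-likelihood test, Benjamini-Hochberg adjustment over all genes tested, threshold 0.05). The fit was also run on simulated counts with the same dispersion for every gene. These had neither the split of the WT libraries nor an outlying library, so they cannot show how the fit behaves under those. Single sums were compared by exact permutation tests. Log2 CPM for the nearest patterns used a prior count of 2. Alternatives were DESeq2 1.42.0, limma-voom (limma 3.58.1) with sample quality weights, which give libraries that deviate more less weight, other scalings, no filter, 1 joint fit, a Y chromosome covariate, either WT pair and leaving out each library.

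The labels do not say that libraries of a group came from separate animals, so p-values measure only the spread between them. Deviations of same-numbered PRELP-/- and OMD-/- libraries from their group means correlated positively (r = 0.303, 0.181 and 0.148), which meets the bar set for pairing. The fit with the replicate number as a block is therefore given beside the reported one, which has none. Differently numbered libraries were not compared, and deviations from a group mean are not independent, so these values do not establish pairing. The genotype label of the PRELP-/- samples is spelled PRLEP-/- and was read by their titles. The members and lists were chosen with earlier results of these data known. Named genes were the 10 members, the targeted genes, 5 further family genes, the genes of each list called in both knockouts, up to 4 called genes per list and comparison with the largest change, and the 3 nearest patterns to Egf. A result that the rule would name was left out.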

Additional observations from a re-analysis of the deposited data

How the results depend on the processing

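Counts of called members moved in few settings in OMD-/- and in more of them in PRELP-/-. Limma-voom here always carries sample quality weights, so that both the model and the weight of each library change. In OMD-/- against WT, 1 was called in most settings. The count was 2 with limma-voom (43.4% of all genes called) and with the Y chromosome covariate (38.9%), and 3 against WT replicates 3 and 4 only (39.8%). In PRELP-/- against WT, 3 of 10 were called with limma-voom, where it called 42.1% of all genes. The count was 0 with WT replicates 1 and 2 only (0.715% of all genes) and 0 with WT replicates 3 and 4 only (2.7%). It was 0 to 1 when 1 library was left out (2.77% to 22.2%). In PRELP-/- against OMD-/- the count stayed at 0. Genes of the pathway lists called in OMD-/- numbered 28 in the reported fit, where 29.4% of all genes were called. They numbered 13 in a joint fit of 3 groups (14.7% of all genes), 43 with limma-voom (43.4%) and 13 to 26 when 1 library was left out (17.2% to 29.5%). In PRELP-/- they numbered 2 in the reported fit (7.29% of all genes), 6 in the joint fit (14.7%), 7 with DESeq2 (12.5%) and 31 of 83 with limma-voom (42.1%). They numbered 1 without a filter (3.76%), 1 against WT replicates 3 and 4 only (2.7%) and 0 against WT replicates 1 and 2 only (0.715%). When 1 library was left out they numbered 0 to 10 (2.77% to 22.2%). Limma-voom called 14 between the knockouts (6.4% of all genes), against 0 (0.00633%). The joint fit also ended the OMD-/- calls of Nrg2, Nrg4, Sdc4, Eps15, Mapk3, Araf, Spred1 and Egr3 (adjusted p from 0.0587 to 0.458, edgeR).

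The replicate block, over numbers that the deviations did not pair between a knockout and WT, called 0 members and 0 list genes in PRELP-/- (Egf at -2.03, adjusted p = 0.127, edgeR) and 15 list genes in OMD-/-. Over all genes it called 0.694% in PRELP-/- and 21.1% in OMD-/-. The OMD-/- calls of Nrg4, Sdc4 and Eps15 were among those lost with the block (adjusted p = 0.068, 0.0655 and 0.176, edgeR). Between the knockouts, where the same-numbered deviations met the bar set for pairing without establishing it, the block changed no call of a member or list gene. It moved the count over all genes there from 1 to 43. Correlations of same-numbered deviations from WT were -0.0585, 0.137 and -0.0998 for PRELP-/- and 0.041, -0.0443 and 0.0236 for OMD-/-.

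Some fold changes turned in sign, all of them uncalled in the reported fit. Against WT replicates 1 and 2 only, OMD-/- gave 0.26 for Areg, 0.80 for Ereg, -0.06 for Erbb2 and -0.11 for Erbb3, and PRELP-/- gave 0.33 for Nrg1. Against WT replicates 3 and 4 only, Nrg1 was at -0.10 in OMD-/- and Erbb2 at 0.04 in PRELP-/-. Erbb3 in OMD-/- was at -0.01 with upper-quartile factors and -0.04 with the replicate block. Nrg1 in PRELP-/- was at 0.01 in the joint fit, with DESeq2 and without a filter, at 0.00 with DESeq2 size factors, at 0.02 with the replicate block and at 0.12 with the Y chromosome covariate. Limma-voom gave 0.13 for Nrg1, 0.10 for Egfr, 0.16 for Erbb2 and 0.04 for Erbb3 in PRELP-/- against WT, and 0.04 for Tgfa, 0.09 for Nrg1, 0.08 for Erbb2 and 0.02 for Erbb3 against OMD-/-. When 1 library was left out, the range was -0.75 to 0.12 for Ereg and -0.05 to 0.07 for Erbb3 in OMD-/-. In PRELP-/- against WT it was -0.17 to 0.03 for Hbegf, -0.19 to 0.24 for Nrg1, -0.31 to 0.14 for Egfr, -0.25 to 0.13 for Erbb2, -0.52 to 0.01 for Erbb3 and -0.09 to 0.87 for Erbb4. Against OMD-/- it was -0.08 to 0.89 for Egf, -0.38 to 0.03 for Nrg1, -0.39 to 0.04 for Egfr and -0.31 to 0.05 for Erbb2. The receptors turned when PRELP-/- replicate 1 was left out.

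Summed levels turned as well. With library totals in place of TMM, the ligand sum differed from WT by -0.308 RPKM in OMD-/- and -3.63 RPKM in PRELP-/-, and the receptor sum in OMD-/- by -5.39 RPKM. Without Tgfa the ligand differences were -0.508 and -1.26 RPKM, with Nrg2 outside the sum throughout. When 1 library was left out, the receptor difference ranged from -0.251 to 4.51 RPKM in OMD-/-, from -13.3 to 3.13 RPKM in PRELP-/- and from -15.2 to 1.23 RPKM between the knockouts. The cause of these shifts was not tested. With 4 against 3 libraries the exact permutation tests cannot go below p = 0.0571 and with 3 against 3 not below 0.1, and counts of 3 to 19 reads limit Egf, Ereg and Nrg4 in the knockouts.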
